A study of Rattus norvegicus with 5 samples.

Results

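The knockdown of Mll3, the gene now named Kmt2c, was compared with the control in rat primary cortical neurons. Every gene row of the authors' table for this comparison was taken, 15294 genes of the 16081 found in any of the 4 tables of the series. All neurons came from embryos at day 18 and were kept for 21 days in vitro before total RNA was harvested. The control carries the name GFP, for green fluorescent protein, and the knockdown group received an shRNA, a short hairpin RNA that lowers 1 transcript by RNA interference, against Mll3. The other 3 knockdowns, of Smarcb1, Mbd5 and Ehmt1, are used here as reference. The labels list 1 sample per group, and the number of libraries behind each table, the shRNA vector, its promoter and the rat strain are not given in the sources used here. Where nothing says that the libraries came from separate cultures, p-values measure only the spread between these libraries, which may be technical.

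KMT2C is the catalytic subunit of a complex that places methyl groups on histone H3 at lysine 4, mainly at enhancers, where the mark accompanies the activation of nearby genes. Loss of 1 copy of the human gene causes a neurodevelopmental disorder that resembles Kleefstra syndrome, whose main gene, EHMT1, encodes a methyltransferase of another lysine of the same histone. SMARCB1 is a subunit of the SWI/SNF chromatin remodeller, and MBD5 belongs to the proteins with a methyl-CpG-binding domain. The series title relates such genes to neuronal network hyperactivity, and the comparison addresses which transcripts change when Mll3 is lowered.

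The tables name genes by Ensembl identifier, and no source used here pairs these with symbols. The level of Kmt2c, pathway lists and the markers of neurons and other cell types were therefore not analysed here, so the knockdown and the neuronal label were not checked on marker genes. In cultures measured as bulk RNA, fewer cells of a type and less RNA per cell cannot be told apart. Genes are described below by direction, size and level, with 4 identifiers as examples.

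Gene rows of the authors' deposited Mll3 table summed to 10834652 normalized counts per library on average, between the 9963179 and 12264209 of the other tables. A normalized count is a read count divided by the size factor of its library, and it rises with transcript length. A single row held 21.4% of all gene counts and a second row 4.94%. In the authors' deposited table neither was called different, the log2 fold changes being -0.01 (SE 0.25) and 0.15 (SE 0.27). All fold changes in this text, deposited ones included, are given as knockdown over control. By the reading of the signs described below, this reverses the deposited sign for Mll3, Smarcb1 and Mbd5 and keeps it for Ehmt1. Reads outside annotated features made up 14.4% of all normalized counts, and the authors' deposited table gives them a log2 fold change of -0.53 (SE 0.24) at adjusted p 0.186. Unmapped reads made up 24.1%, and the authors' deposited table gives 0.24 on the log2 scale (SE 0.35) at adjusted p 0.833. The part of either read class in the results below was not tested.

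Most genes that changed with Mll3 knockdown lost expression. In the authors' deposited table, 1176 genes fell and 215 rose at adjusted p below 0.05. Of the 14107 genes tested, meaning those given an adjusted p, these are 8.34% and 1.52%, or 9.86% together. Falls thus made up 84.5% of the called genes (95% exact binomial interval 82.5 to 86.4, counting error only, as if genes were independent). The median deposited log2 fold change over all tested genes was 0.03, close to 0 and on the side of a rise. Among the 12716 genes that were not called, 57.4% had a fold change above 0, with a median of 0.07.

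**Figure D1:**
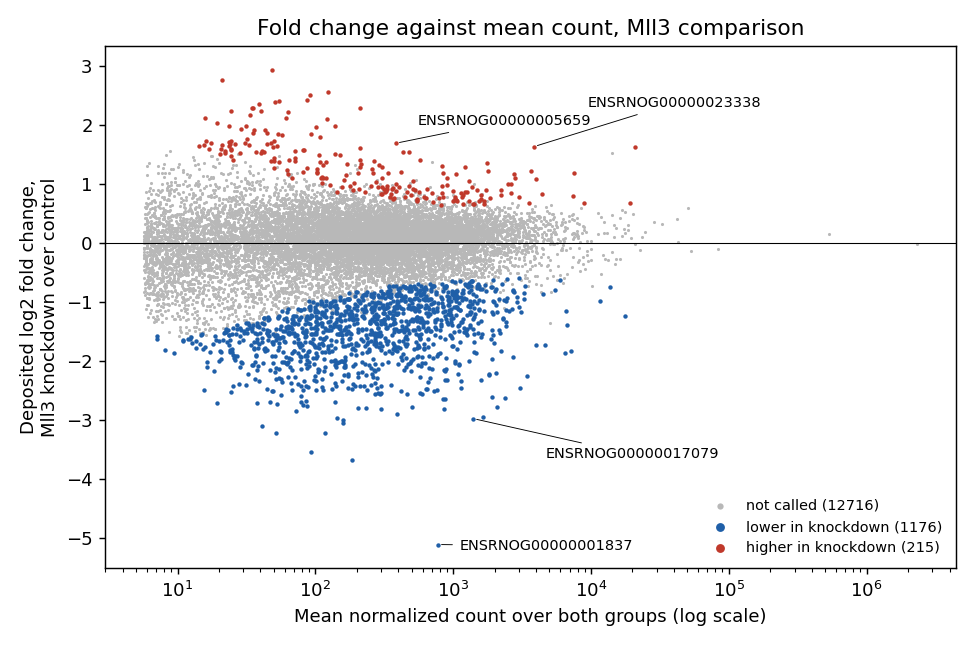
Deposited log2 fold change of the Mll3 knockdown over the control (vertical axis) against the mean normalized count over both groups (horizontal, log scale), 1 point per tested gene. The deposited sign is reversed to give knockdown over control. Blue points are the 1176 genes called lower and red points the 215 called higher. The 4 named genes are labelled, and ENSRNOG00000001837 lies below all other genes at -5.10.

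The falls were not limited to weakly detected genes. When the tested genes were divided into 10 deciles of mean normalized count, the share called lower was between 8.58% and 10.5% in each of the 8 upper deciles, from a mean count of 41.6 upwards. It was 6.45% in the second decile and 1.28% in the lowest. The share called higher was between 0.993% and 2.62% in the 9 upper deciles and 0.213% in the lowest. Rises were most frequent relative to falls in the second and the highest decile. Falls were 71.1% of the called genes in the second decile, 90.5% in the sixth and 78.1% in the highest. The power to call genes differed along the scale, since the smallest fold change called had a log2 size of 1.54 in the lowest decile and of 0.59 in the highest.

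**Figure D2:**
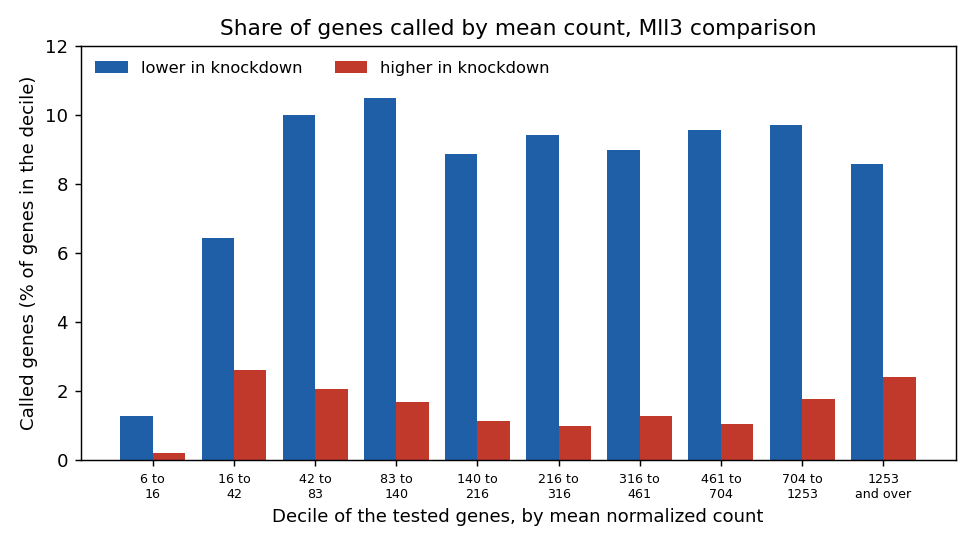
Percentage of the genes in each decile of mean normalized count (horizontal axis, range of counts given) that were called lower (blue) or higher (red) in the Mll3 knockdown. The blue bars stay between 8.58% and 10.5% from the third decile on, and the red bars stay at or below 2.62% throughout.

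The deposited fold changes appear to be pulled toward 0, more so for genes with few reads, which is inferred and stated in no source used here. Their standard errors, with a highest value of 0.56, were taken to follow the form that a normal prior centred on 0 gives. On that assumption the pull was undone for 12312 of the tested genes. Such restored values also give the mean level of each group. For the 6521 genes suited to this check, the control level restored from the Mll3 table departed from the mean of the 4 tables by a median of 0.00030 on the log2 scale. The 4 tables thus gave matching control levels once each was scaled. In this reading, positive deposited values mean higher in the control for Mll3, Smarcb1 and Mbd5, but higher in the knockdown for Ehmt1. All Ehmt1 values below rest on that reading. The next best of the 16 possible readings of the signs took Ehmt1 in the same direction as the other tables. It left a median departure of 0.059 over the 4 tables, against 0.00048 for the one used. With the values as deposited, the SD of the control level over the tables was 0.026 for the same reading and 0.138 for the next.

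With the pull undone, 1148 of the genes that fell had a median log2 fold change of -1.61 (interquartile range -2.12 to -1.18). Of these, 982 fell by at least 2-fold, 342 by at least 4-fold, 39 by at least 8-fold and 17 by at least 10-fold. The 203 restored rises had a median of 1.27 (interquartile range 0.93 to 1.97). There were 137 rises of at least 2-fold, 48 of at least 4-fold, 9 of at least 8-fold and 4 of at least 10-fold. These counts rest on undoing the pull: in the authors' deposited table, 961 falls reached 2-fold, 194 reached 4-fold and 7 reached 8-fold, and of the rises 134, 19 and 0 did so. The typical standard error of a single gene was 0.36 for falls and 0.37 for rises. The genes were selected by a call on these same values, which favours overestimated changes, and the size of that bias was not tested. Of the 1148 restored falls, 46 had a knockdown level under 10 normalized counts, and 19 of these had at least 50 in the control. The 28 falls that could not be restored had low counts, and their deposited fold changes also put all 28 under 10 in the knockdown, none of them from 50 or more in the control. Of the 203 restored rises, 23 started from a control level under 10, and deposited fold changes put 7 of the 12 rises not restored there too.

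Called genes made up a modest part of the gene reads. The 1148 restored genes that fell held 923270 normalized counts, 8.52% of the gene total, in the control, and 357424, or 3.30%, in the Mll3 knockdown. The 203 restored genes that rose held 1.07% in the control and 2.25% in the knockdown. Normalized counts are relative, and the genes outside these 2 sets held 4.54% more counts in the knockdown than in the control.

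**Figure D3:**
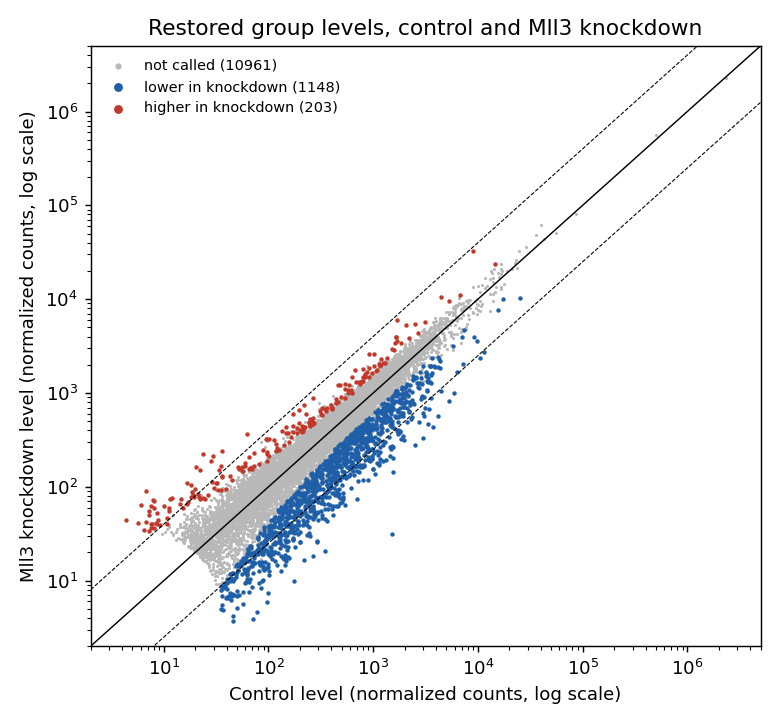
Restored level in the Mll3 knockdown (vertical axis) against that in the control (horizontal), in normalized counts on log scales, 1 point per gene. The solid line marks equal levels and the dashed lines a 4-fold difference. Of the 1148 blue points, 342 lie on or beyond the lower dashed line, and 48 of the 203 red points lie on or beyond the upper one.

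Absence of a call did not always mean a well-measured gene. Of the 10961 restored genes that were not called, 6099 (55.6%) had a 95% interval of the restored fold change within 2-fold of the control in either direction. That share was 76.7% where the mean count was at least the median of 216, and 27.6% below it. The median restored standard error over the 10108 genes restored in all tables was 0.30 for Mll3, against 0.25 for Smarcb1, 0.25 for Mbd5 and 0.26 for Ehmt1, so the Mll3 comparison was the least precise of the 4.

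Examples were taken from called genes whose mean count was at least the median. ENSRNOG00000001837 fell furthest, also among all called genes. Its restored level was 1520.2 normalized counts in the control and 31.1 in the Mll3 knockdown, which is 2.05% of the control. The 95% interval of the fold change, multiplied by the control level, ran from 19.2 to 50.3, and the intervals of the other examples are formed likewise. With the deposited sign reversed, the change was -5.10 on the log2 scale in the authors' deposited table (SE 0.32, adjusted p 3.37e-52). On the scale of the Mll3 table the level was 195.5 in the Smarcb1 knockdown, 460 in Ehmt1 and 796 in Mbd5, so that all 4 knockdowns lay below the control. That Mll3 lay lowest follows in part from choosing the gene by its Mll3 fold change, and all knockdowns were set against the same control.

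The next largest fall among such genes was that of ENSRNOG00000017079, from 2512 normalized counts in the control to 281 (95% interval 192 to 413) in the Mll3 knockdown. The authors' deposited table gives -2.97 on the log2 scale (SE 0.27, adjusted p 4.50e-25). The Smarcb1 knockdown was again the nearest, at 639, whereas Ehmt1 (2084) and Mbd5 (2342) were not called in the authors' deposited tables (adjusted p 0.669 and 0.888).

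The largest rise among such genes was that of ENSRNOG00000005659, from 171 normalized counts in the control to 598 (95% interval 402 to 890) in the Mll3 knockdown. The authors' deposited table gives 1.69 on the log2 scale (SE 0.27, adjusted p 5.74e-08). Its level was 396 in the Smarcb1 knockdown, called higher as well in the authors' deposited table (adjusted p 0.00413), and 208 in Mbd5 and 118 in Ehmt1, neither of them called. ENSRNOG00000023338 rose from 1675 to 6038 (95% interval 3481 to 10472), or by 1.64 on the log2 scale in the authors' deposited table (SE 0.36, adjusted p 1.62e-04). It was called in none of the other 3 tables, where its levels were 2427 (Smarcb1), 2073 (Mbd5) and 1473 (Ehmt1).

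**Figure D4:**
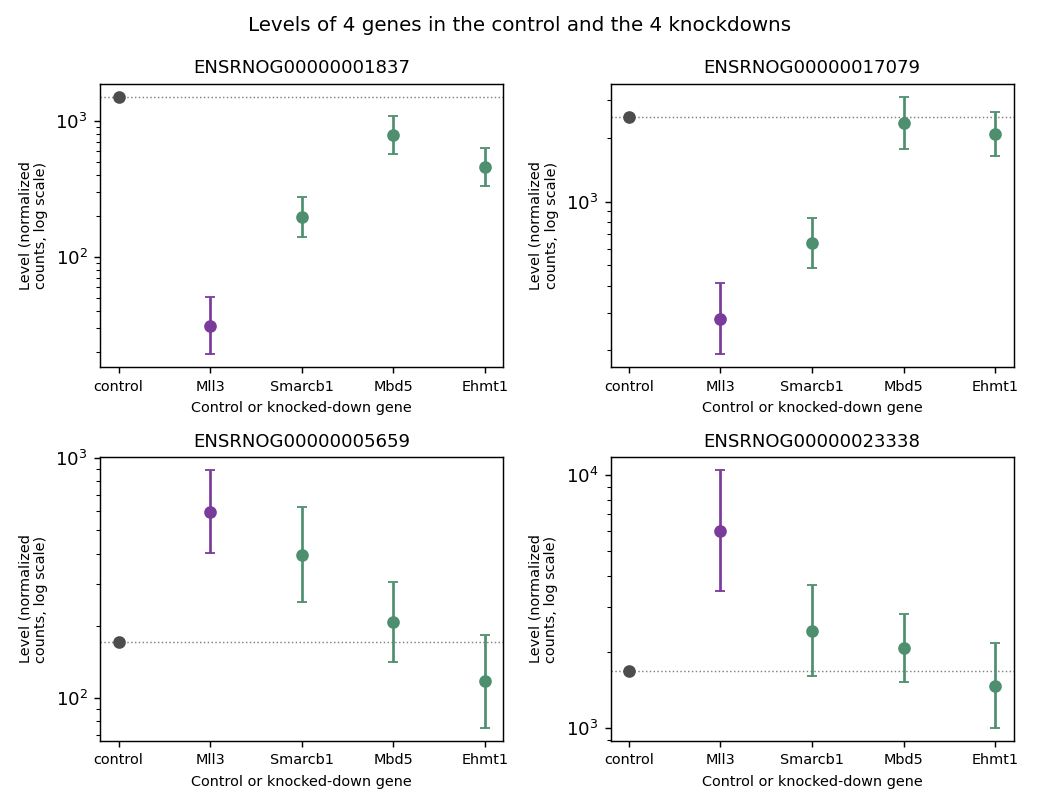
Restored levels of the 4 named genes (vertical axes, normalized counts on the scale of the Mll3 table, log scale) in the control and the 4 knockdowns. Error bars are the 95% interval of the restored fold change multiplied by the control level, so they hold the error of both groups. The dotted line is the control. The genes were chosen for the size of their Mll3 fold change, so the distance of the Mll3 knockdown (purple) from the control describes that choice.

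Whether the Mll3 knockdown differed from the other knockdowns was tested directly. The restored fold changes of a pair of tables were subtracted, which removes the control. The difference was divided by the combined standard error, and the two-sided normal p-values were adjusted by the Benjamini-Hochberg method over all genes compared. The standard errors were combined as if independent although part of them comes from the shared control, which by itself makes for too few calls. Spread between cultures, which these libraries may not hold, would make for too many calls and was not tested.

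The Mll3 and Smarcb1 knockdowns differed in 71 of 12000 genes (0.592%), 36 lower and 35 higher in Mll3. Calls between Mll3 and Mbd5 numbered 542 of 11038 (4.91%), with 429 lower in Mll3. Against Ehmt1 there were 1195 of 10294 (11.6%), with 1049 lower in Mll3. At an unadjusted p-value under 0.05 the counts were 506, 1532 and 2203 of the same 12000, 11038 and 10294 genes. If no gene differed and the errors were right, a share of 0.05 would pass. The count for Smarcb1 lay below that share, and those for Mbd5 and Ehmt1 lay above it. The median size of a called difference was 1.96 on the log2 scale for Smarcb1, 1.74 for Mbd5 and 1.74 for Ehmt1, and the smallest was 1.11, 0.88 and 0.78, so smaller differences between the knockdowns were mostly out of reach. These counts depend on the error assumed: with 0.5 of each error variance taken to come from the control, 348 (Smarcb1), 1611 (Mbd5) and 2603 (Ehmt1) genes differed, of which 212, 1031 and 1680 were lower in Mll3.

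The named genes were chosen for their Mll3 fold changes, so their differences from the other knockdowns are given as a description, with no test. On the restored log2 scale, Mll3 minus Smarcb1 was -2.65 (SE 0.43) for ENSRNOG00000001837 and -1.18 (SE 0.35) for ENSRNOG00000017079. For the rising genes it was 0.59 (SE 0.44, ENSRNOG00000005659) and 1.31 (SE 0.51, ENSRNOG00000023338). Mll3 minus Mbd5 and Mll3 minus Ehmt1 were -4.68 and -3.89 for ENSRNOG00000001837, -3.06 and -2.89 for ENSRNOG00000017079, 1.52 and 2.34 for ENSRNOG00000005659, and 1.54 and 2.03 for ENSRNOG00000023338.

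The genes called in the Mll3 comparison were then followed as sets through the other tables. These genes were chosen on the Mll3 table, and the tables share their control, so the medians are given side by side as a description. The 1062 genes called lower and restored in all tables had a median restored log2 fold change of -1.55 in Mll3, -1.07 in Smarcb1, -0.36 in Mbd5 and 0.15 in Ehmt1. The 128 genes called higher had medians of 0.98 in Mll3, 0.46 in Smarcb1, 0.07 in Mbd5 and -0.06 in Ehmt1. Restoration in all tables left out 75 of the 203 restored rises and 86 of the 1148 restored falls. Those left out had larger changes in Mll3 (medians 2.22 and -2.17), so the sets followed hold the smaller ones. Over all 10108 genes the medians were 0.04, 0.03, 0.00 and -0.04.

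**Figure D5:**
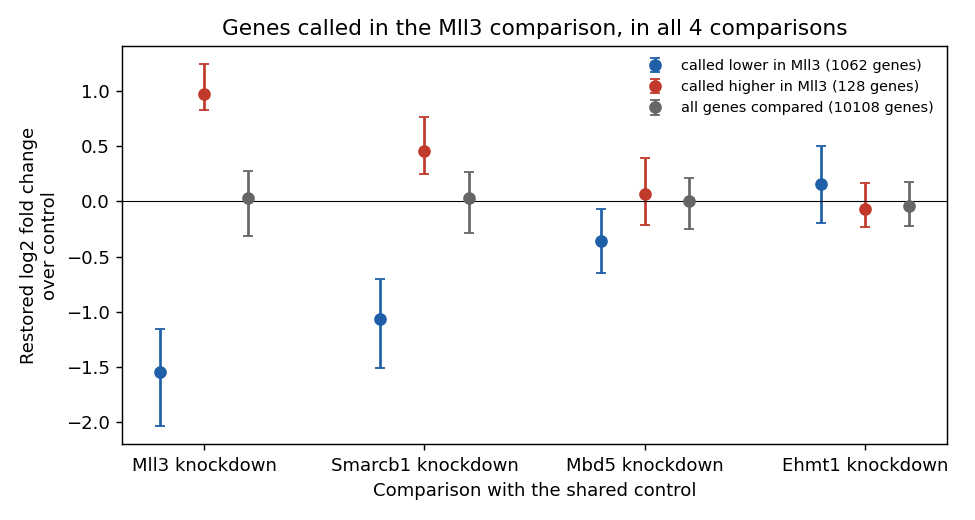
Median restored log2 fold change over the control (points) with the interquartile range over genes (bars) in each comparison, for the 1062 genes called lower in Mll3 (blue), the 128 called higher (red) and all 10108 genes compared (grey). The blue median goes from -1.55 in Mll3 to 0.15 in Ehmt1, while the grey medians stay between -0.04 and 0.04.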

How the data were processed

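The deposited tables are the authors' own comparisons. Reads were aligned with STAR 2.5.2b to Rnor_6.0 and compared with DESeq2, per the submitters' processing notes. Each gene row gives a mean normalized count signal, a log2 fold change with its standard error, a Wald score, a p-value and an adjusted p-value, per the file headers. The sign of the fold change, the filters and the number of libraries are not given in the sources used here, and neither the SD over libraries nor their depth is known. The 4 rows of reads outside genes were left out of all gene counts.

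The sign was read by requiring the tables to imply equal control levels, over genes with a mean of at least 200 in every table. Deposited signs were then reversed for Mll3, Smarcb1 and Mbd5 and kept for Ehmt1, so that every fold change is knockdown over control. A normal prior of SD t gives standard errors that peak at t divided by 2, so t was taken from the highest one. Fold changes and errors were then divided by the implied shrinkage, for genes with a mean of at least 20 and a standard error of at most 0.97 of the highest. Control and knockdown were given equal weight, since the fitted share of the control was 0.501 for Mll3. Restoring, sign reading and the difference test were run on simulated data with an assumed number of libraries and the same form of prior. Such data cannot show that this prior or that number holds for the deposited values. Restoring and the difference test were chosen after the tables were seen (Python 3.11.15, NumPy 2.4.6, SciPy 1.17.1).

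The text names 2 falls and 2 rises, the largest deposited fold changes among called genes whose mean count was at least the median. The planned rule and the 40 gene lists rest on symbols and were not used. Members and tests were chosen with earlier results of these data known.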

Additional observations from a re-analysis of the deposited data

How the results depend on the processing

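The number of called genes in the Mll3 comparison was 1391, and 759 of these lay at or above the median mean count. Stricter, looser and size-limited calls, calls without the filter on low values and adjustment over gene rows alone gave between 946 and 1733. The share of falls was 89.9% at an adjusted p-value under 0.01, 79.2% under 0.1 and 87.8% for log2 changes of 1 or more. It stayed the majority under every alternative run. Centring on the median, a shift of 0.03, could not turn the sign of any called gene and is no check. Between knockdowns, an adjusted p under 0.01 gave 44 (Smarcb1) and 323 (Mbd5) differing genes. Among genes in the upper part by mean count (at least the median), 43 of 6000 (Smarcb1), 279 of 5519 (Mbd5) and 612 of 5147 (Ehmt1) differed. Fewer genes were tested there, and as shares these counts were not below those over all genes compared. With 0.5 of each error variance removed the counts were 348, 1611 and 2603. Deposited in place of restored values gave 72, 603 and 1228. The same reading of the signs came first at a minimum mean of 50, 200 and 1000, for deposited and restored values. The sign check on the targeted genes and the counts by gene list were not run, because they need symbols. No library could be left out and no paired analysis was possible because single libraries have no values in the tables. Calls were most limited in the lowest decile of mean count, where the smallest called log2 change was 1.54.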

Other observations

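Once scaled to the Mll3 table, the 4 tables together gave the means of 5 groups on a common scale. The factors applied were 0.968 for Smarcb1, 0.899 for Mbd5 and 1.15 for Ehmt1. With the shrinkage undone, the control level of ENSRNOG00000001837 on the scale of the Mll3 table was 1520.2 normalized counts from the Mll3 table, 1521 from Smarcb1, 1522 from Mbd5 and 1521 from Ehmt1. The fitted share of the control in the means of the Mll3 table was 0.473 with deposited and 0.501 with restored fold changes. For 31 of 6521 genes (0.475%) the control level from the Mll3 table departed from the mean of the tables by more than 0.01 on the log2 scale.

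The Mll3 table lacks 787 genes that are in another table, with a median of 3.40 and a highest mean of 23.3 normalized counts in the table where each was highest. It holds 86 genes found in no other table, none with a mean above 10.2. Reads that fell on more than 1 annotated gene were 0.759% of all normalized counts and reads mapped to several places 5.55%, with deposited log2 fold changes of 0.04 (SE 0.21) and 0.05 (SE 0.21) in the authors' table.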
